A study of Homo sapiens with 4 samples.

Results

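The Fc receptor-like genes FCRL1, FCRL2, FCRL3, FCRL4, FCRL5, FCRLA and FCRLB were examined in a mantle cell lymphoma line, Jeko-1, and a Burkitt lymphoma line, Raji, together with Jeko-1/R and Raji/R, which are sublines resistant to rituximab. Members were all probe sets to which the platform annotation gives a single symbol of these 7 genes, which came to 21 of the 54613 probe sets on the array. The parental cells had no rituximab, and the sublines had been treated with this antibody against CD20. The labels state no dose or duration of treatment and no separate cultures. There was 1 array for each of the 4 groups, so that no group had a replicate and the number of arrays limits the precision. The comparisons were Jeko-1 and Jeko-1/R against Raji and Raji/R, and each resistant subline against its parent.

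Fc receptor-like proteins are relatives of the classical receptors for the constant part of antibodies, and most are found on B cells. FCRL1 to FCRL5 are surface proteins whose inner tails carry tyrosine motifs. Inhibitory motifs recruit the phosphatases encoded by PTPN6 and PTPN11 and dampen signals from the B-cell receptor, while FCRL1 has activating motifs and assists that receptor. FCRLA and FCRLB have no membrane anchor and stay inside the cell, where FCRLA binds immunoglobulin chains.

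Signals are MAS5 values, which combine the probes of a probe set into 1 number on each array. Values under 77.5, which is the median signal over the 4 arrays, were set to that floor before any difference was taken. Where the lower side lay under the floor, the fold between the signals as given was larger than the floored one, which is given as "at least". Such a bound leaves out measurement error, so it does not limit the true fold. Pairs of signals are given parent first, subline second. Signals of different probe sets are not compared as levels, since probe sets differ in how well they bind. Of the 21 members, 20 reached the floor on at least 1 array and were tested. The other was 1555799_at of FCRL5, with signals of 3.01 and 12.9 in the Jeko-1 lines and 8.09 and 71.5 in the Raji lines.

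**Figure D1:**
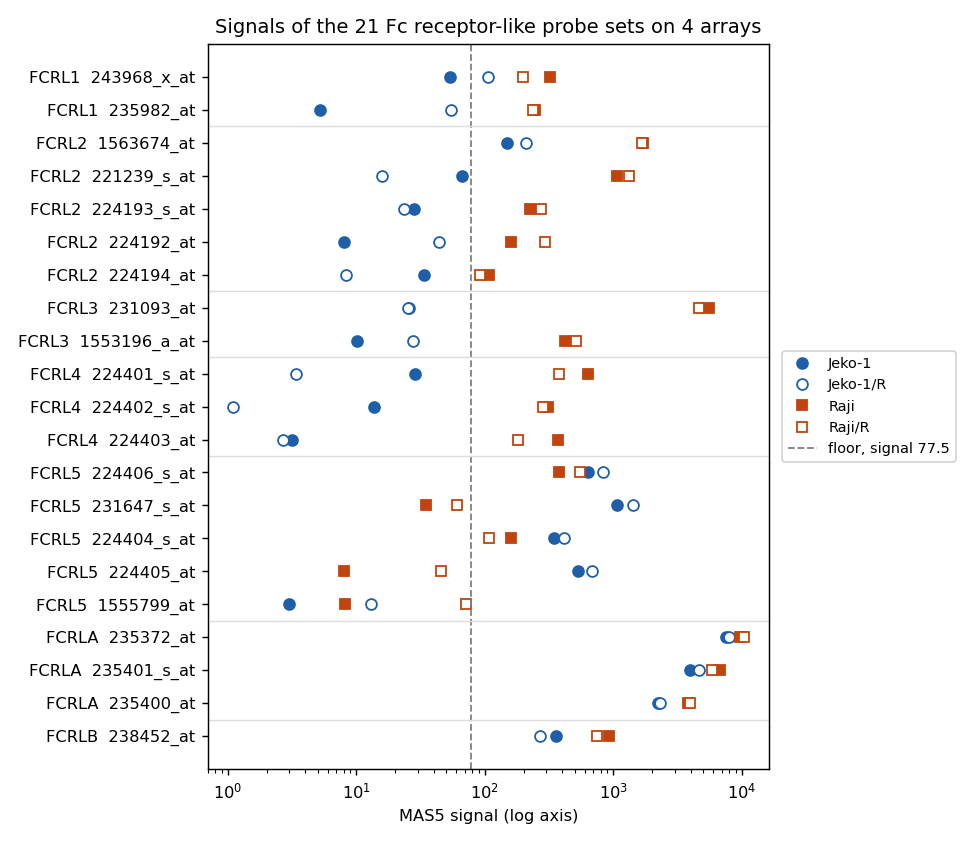
MAS5 signal of each of the 21 member probe sets (log axis) on the 4 arrays, with the floor at 77.5 as a dashed line. Filled symbols are parental and open symbols resistant cells, circles Jeko-1 and squares Raji. For FCRL1 to FCRL4 the squares lie to the right of the circles, and for 4 probe sets of FCRL5 the circles lie to the right.

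The lines differed in the signals of several members of the family. FCRL1, FCRL2, FCRL3 and FCRL4 were higher in the Raji lines, FCRL5 was higher in the Jeko-1 lines, and FCRLA was far above the floor in both. In a limma fit of all 37886 probe sets that reached the floor, with line and resistance as terms, 13 members were higher in the Raji lines and 3 in the Jeko-1 lines at a Benjamini-Hochberg adjusted p under 0.05. That is 80.0% of the 20 members tested. Of all probe sets tested, 52.7% had an unadjusted p under 0.05 and 47.1% were called, 22.2% as higher in the Raji lines and 25.0% as higher in the Jeko-1 lines. The median log2 difference of Jeko-1 minus Raji was -1.49 over the members and -0.14 over all probe sets tested. Members that reached the floor in 1 line alone entered the fit through that line, so these counts describe the members and are no test of the family.

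The calls depended on how low values were handled. With a pseudocount in place of the floor, 13 members were called higher in the Raji lines and 3 in the Jeko-1 lines, as in the main fit. With the deposited values and no floor, limma called 0 members and 0 of 37886 probe sets, with 15 members and 16859 probe sets at an unadjusted p under 0.05 and a lowest adjusted p among members of 0.0601. With every probe set tested and the floor kept, 0 members passed, 14 having an unadjusted p under 0.05. Leaving out the Jeko-1 array left 3 members called higher in the Raji lines and 2 in the Jeko-1 lines, and leaving out Jeko-1/R left 2 and 2. Without Raji the counts were 11 and 2, and without Raji/R 11 and 0. A line with both arrays under the floor entered the fit with 2 equal values, so its own spread is missing from the SE and p-values. The parent and its subline stood in for replicates of a line, and an exact permutation test of 2 arrays against 2 cannot give a two-sided p below 0.333.

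FCRL1 to FCRL5 lie side by side on the long arm of chromosome 1, in the order FCRL5, FCRL4, FCRL3, FCRL2 and FCRL1 and all on the minus strand, and FCRLA and FCRLB form a second group further along on the plus strand. The bases before the start sites of 4 members follow, because FCRL3 and FCRL5 differed between the lines in opposite directions, FCRL2 shares a motif with FCRL5, and FCRLA was far above the floor on every array. Each sequence is the 250 bases before a start site in RefSeq (GRCh38.p14), 5' to 3' on the strand of the gene. The FCRL3 window precedes a start site inside the listed span of the gene, which ends at 157700956, so most of that window overlaps the gene. Capitals mark ACTTCCT, the reverse complement of AGGAAGT, which holds the core bound by ETS factors such as PU.1.
FCRL5: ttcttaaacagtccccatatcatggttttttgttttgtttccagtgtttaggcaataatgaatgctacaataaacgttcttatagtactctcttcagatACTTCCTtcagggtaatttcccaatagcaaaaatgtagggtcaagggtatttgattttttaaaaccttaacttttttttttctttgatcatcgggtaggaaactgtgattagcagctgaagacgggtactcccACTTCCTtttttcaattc
FCRL3: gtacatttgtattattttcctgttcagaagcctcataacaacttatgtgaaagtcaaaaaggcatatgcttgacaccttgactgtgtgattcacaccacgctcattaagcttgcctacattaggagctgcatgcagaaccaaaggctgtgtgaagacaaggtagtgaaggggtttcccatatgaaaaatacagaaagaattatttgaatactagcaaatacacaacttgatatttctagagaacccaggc
FCRL2: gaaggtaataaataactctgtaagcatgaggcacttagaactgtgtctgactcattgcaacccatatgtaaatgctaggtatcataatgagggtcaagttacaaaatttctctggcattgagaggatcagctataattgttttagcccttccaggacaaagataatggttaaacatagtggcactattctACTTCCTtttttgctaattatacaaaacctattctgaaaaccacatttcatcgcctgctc
FCRLA: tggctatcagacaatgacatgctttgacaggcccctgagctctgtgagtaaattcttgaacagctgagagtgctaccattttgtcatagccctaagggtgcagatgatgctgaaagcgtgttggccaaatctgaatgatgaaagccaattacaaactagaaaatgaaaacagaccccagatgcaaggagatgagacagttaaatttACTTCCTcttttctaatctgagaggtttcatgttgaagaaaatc
The windows are chr1:157552516-157552765 for FCRL5, chr1:157700770-157701019 for FCRL3 and chr1:157777133-157777382 for FCRL2, all on the minus strand, and chr1:161706979-161707228 on the plus strand for FCRLA. AGGAAGT on either strand was found before FCRL5, FCRL2, FCRL1 and FCRLA, in 4 of the 9 windows listed for the 7 genes, and in 7.01% of 35116 promoter windows of the same length. TGGGAA, the core bound by RBPJ, was found before FCRL5, FCRL3 and FCRLB, and in 20.8% of all windows. The octamer ATTTGCAT was found before FCRLB, and in 1.63% of all windows. The NF-kB letters, GGG and TTTCC spaced by any 2 bases, and the EBF1 letters CCCNNGGG were found before 0 members, and in 1.73% and 17.1% of all windows. No 2 motifs overlapped in a member's window. These motifs were chosen after the sequences had been seen, and a match describes letters only.

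FCRL3, a receptor of B cells that some T and NK cells also carry, had the largest fitted difference in the family. Its brighter probe set, 231093_at, gave signals of 25.8 and 25.3 in the Jeko-1 lines and 5584 and 4657 in the Raji lines. Both Jeko-1 arrays lay below the floor and both Raji arrays far above it, so the Raji lines were at least 65.8-fold higher (log2 difference -6.04 ± 0.25, moderated SE, limma adjusted p = 4.86e-05). The other probe set, 1553196_a_at, gave 10.1 and 27.6 in the Jeko-1 lines against 422 and 514 in the Raji lines, at least 6.01-fold. Both probe sets thus placed FCRL3 above the floor on the Raji arrays alone. The difference of 231093_at was larger in size than that of 99.9% of all probe sets tested.

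FCRL2, which is found on memory B cells, was read by 5 probe sets, with log2 differences of Jeko-1 minus Raji from -3.93 to -0.36. The brightest, 1563674_at, gave 148 and 209 in the Jeko-1 lines against 1700.0 and 1659.8 in the Raji lines. All 4 arrays were above the floor there, and the Raji lines were 9.54-fold higher (log2 difference -3.25 ± 0.27 SE, limma adjusted p = 0.000147). For 221239_s_at the signals were 66.7 and 15.9 in the Jeko-1 lines against 1062 and 1322 in the Raji lines, at least 15.3-fold. The probe sets 224193_s_at and 224192_at were at least 3.22-fold and at least 2.80-fold higher in the Raji lines. The dimmest, 224194_at, gave 33.7 and 8.34 against 108 and 91.1, close to the floor on the Raji side, and was not called (log2 difference -0.36 ± 0.25, limma adjusted p = 0.299).

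FCRL4, an inhibitory receptor that binds immunoglobulin A and marks memory B cells of mucosal tissue, was below the floor on both Jeko-1 arrays with each of its 3 probe sets. The signals of 224401_s_at were 28.8 and 3.41 in the Jeko-1 lines and 639 and 376 in the Raji lines. Those of 224402_s_at were 13.7 and 1.10 against 312 and 286, and those of 224403_at were 3.14 and 2.70 against 373 and 182. The Raji arrays were above the floor every time, and the Raji lines were at least 6.33-fold, 3.86-fold and 3.37-fold higher. All 3 differences passed the test, with limma adjusted p between 0.0008 and 0.0036. With the floor raised to the 75th percentile of all values, a signal of 367, the FCRL4 probe sets 224401_s_at and 224403_at lost their calls, as did FCRL3 1553196_a_at (log2 difference -0.34, limma adjusted p = 0.114). FCRL4 224402_s_at did not reach that floor.

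FCRL1, the activating member, was also higher in the Raji lines. Its probe set 243968_x_at gave 53.6 and 105 in the Jeko-1 lines and 319.8 and 199.9 in the Raji lines. The groups did not overlap, and the Raji lines were at least 2.80-fold higher, a difference of -1.49 ± 0.33 SE on the log2 scale (limma adjusted p = 0.00841). The other, 235982_at, gave 5.20 and 54.5 against 244 and 237, at least 3.11-fold (limma adjusted p = 0.00169). Over FCRL1 to FCRL4 together, all 12 probe sets were above the floor on both Raji arrays, 10 were below it on both Jeko-1 arrays, and 11 were called. Of all probe sets tested, 26.8% were below the floor on both Jeko-1 arrays.

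FCRL5, a receptor for immunoglobulin G that is also abundant on plasma cells, ran the other way. The probe set 231647_s_at gave 1071 and 1419.9 in the Jeko-1 lines and 34.6 and 60.5 in the Raji lines. Only the Jeko-1 arrays reached the floor, and the Jeko-1 lines were at least 15.9-fold higher (log2 difference 3.99 ± 0.26 SE, limma adjusted p = 7.87e-05). For 224405_at the signals were 529 and 677 in the Jeko-1 lines against 7.99 and 45.5 in the Raji lines, at least 7.72-fold. The other FCRL5 probe sets gave smaller differences. For 224404_s_at the signals were 345 and 409.7 against 159.8 and 107, a 2.87-fold difference (limma adjusted p = 0.00481) that was 0.08 on the log2 scale and not called with the higher floor (limma adjusted p = 0.677). For 224406_s_at they were 636 and 828 against 380.4 and 550.0, a log2 difference of 0.67 ± 0.25 that was not called (limma adjusted p = 0.0666), but was with the higher floor (limma adjusted p = 0.0114). The 4 tested probe sets agreed in direction but ranged from 0.67 to 3.99 on the log2 scale, with an SD of 1.48 between them.

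**Figure D2:**
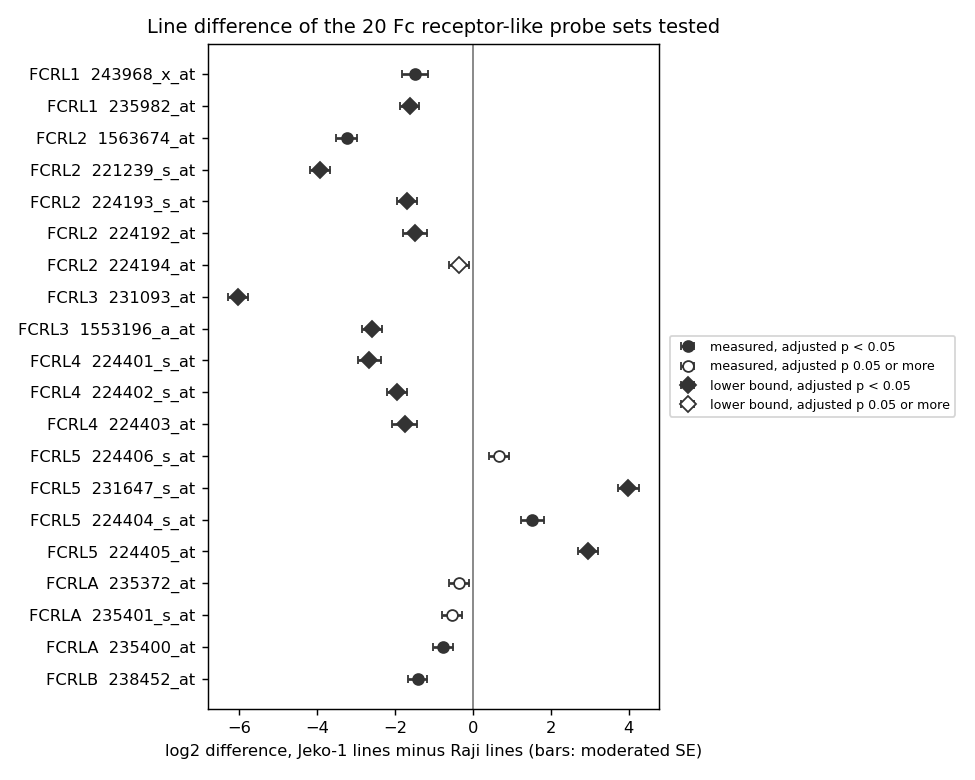
Log2 difference of the Jeko-1 lines minus the Raji lines for the 20 tested probe sets, with moderated SE; diamonds are lower bounds because both arrays of a line were below the floor, and open symbols did not pass. FCRL1 to FCRL4 lie to the left of 0 (-0.36 to -6.04) and FCRL5 to the right (0.67 to 3.99).

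FCRLA, the intracellular member that binds immunoglobulin, was far above the floor on all 4 arrays, with small differences between them. The probe set 235372_at gave 7546 and 7945 in the Jeko-1 lines and 9615 and 10323 in the Raji lines, a log2 difference of -0.36 ± 0.25 SE that was not called (limma adjusted p = 0.280) and turned to 0.05 with quantile normalization. With a lowess adjustment of single arrays it was 0.22 for parental and 0.33 for resistant cells. For 235401_s_at the signals were 3947 and 4663 against 6732 and 5819.9, and the difference of -0.54 ± 0.26 was not called (limma adjusted p = 0.138), but was with the higher floor (limma adjusted p = 0.0394). For 235400_at they were 2226 and 2306 against 3787 and 3952, and the difference of -0.77 ± 0.25 was called (limma adjusted p = 0.0392), but not with a pseudocount in place of the floor (limma adjusted p = 0.0775). The 95% interval of the difference for 235372_at ran from -0.95 to 0.23, and for 235400_at from -1.36 to -0.18. FCRLB, the second intracellular member, had 1 probe set, with signals of 359.8 and 269 in the Jeko-1 lines and 929 and 742 in the Raji lines. The arrays of the lines did not overlap, and FCRLB was 2.67-fold higher in the Raji lines (log2 difference -1.42 ± 0.25 SE, limma adjusted p = 0.00322).

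The same pattern was seen when parental and resistant cells were taken apart, although these contrasts have 1 array on each side and no test, and their arrays are those of the fit. In Jeko-1 against Raji, 12 of 20 members were at least 2-fold lower and 3 at least 2-fold higher in Jeko-1, where 20.4% and 25.4% of all probe sets were (45.8% in either direction). In Jeko-1/R against Raji/R, 11 members were at least 2-fold lower and 3 at least 2-fold higher, where 25.0% and 24.4% of all probe sets were (49.4% in either direction). For FCRL3 231093_at the parental lines differed at least 72.1-fold and the sublines at least 60.1-fold, Raji being the higher. For FCRL5 231647_s_at the bounds were 13.8-fold and 18.3-fold, with Jeko-1 the higher. FCRL1 243968_x_at narrowed from at least 4.13-fold to 1.90-fold, since its signal was higher in Jeko-1/R than in Jeko-1 and lower in Raji/R than in Raji.

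No member was called between resistant and parental cells. In the same limma fit, 0 of 20 members and 0 of 37886 probe sets passed an adjusted p of 0.05, and 0 members and 2.31% of the probe sets had an unadjusted p under 0.05. The adjusted p of the members lay between 0.977 and 0.999. The log2 differences of resistant minus parental ran from -0.52 ± 0.32 SE for FCRL4 224403_at to 0.46 ± 0.25 for FCRL5 224406_s_at. Their 95% intervals ran from -1.27 to 0.24 and from -0.14 to 1.05, so a 2-fold change of either sits inside the interval. For FCRL3 231093_at the interval was -0.73 to 0.47, and for FCRLA 235372_at it was -0.50 to 0.68. Where both arrays of a line lay under the floor, that line entered the fit with a log2 ratio of 0. The fitted difference then rests on the other line alone and is pulled toward 0. This held for 10 of the 12 FCRL1 to FCRL4 probe sets and for FCRL5 231647_s_at and 224405_at. Thus FCRL4 224403_at had a Raji/R over Raji ratio of -1.03 and a fitted difference of -0.52, and FCRL3 231093_at -0.26 and -0.13. Such intervals do not describe a change in both lines. The limma fit pairs each subline with its parent, and an exact test over 2 pairs cannot give a two-sided p below 0.5.

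Within the Jeko-1 pair, 10 members reached the floor on at least 1 array, and 0 of them differed 2-fold. Among all 27731 probe sets described in this pair, 0.545% were at least 2-fold higher and 0.537% as much lower in Jeko-1/R (1.08% in all). Each of the 4 FCRL5 probe sets was somewhat higher in Jeko-1/R, with log2 ratios of 0.41 for 231647_s_at, 0.38 for 224406_s_at, 0.35 for 224405_at and 0.25 for 224404_s_at. The FCRL2 probe set 1563674_at stood at 0.49, FCRLA between 0.05 and 0.24, and FCRLB at -0.42. FCRL1 243968_x_at stood at 0.44 or more, its Jeko-1 signal being below the floor. In all, 9 of the 10 members were above 0, where 51.8% of all probe sets were. These are not separate genes, since FCRL5 gave 4 of the 10 and FCRLA 3, all read on the same arrays. The ratios of all probe sets in this pair had an SD of 0.32, and the FCRL5 ratios are of that size.

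Within the Raji pair, 18 members had both arrays above the floor, and 1 of them, FCRL4 224403_at, was at least 2-fold lower in Raji/R (373 to 182, log2 ratio -1.03). In this pair 7.73% of all 33630 probe sets were at least 2-fold higher and 2.88% as much lower (10.6% in all). The other FCRL4 probe sets stood at -0.77 and -0.12. With a pseudocount in place of the floor, 224403_at was at -0.87 and no longer 2-fold lower. The FCRL2 probe set 224192_at had the largest increase, from 161 to 293 (0.87), while the other FCRL2 probe sets lay between -0.24 and 0.32. FCRL1 stood at -0.68 and -0.04 with its 2 probe sets, FCRL3 at -0.26 and 0.29, and FCRLB at -0.32. FCRL5 224406_s_at went from 380.4 to 550.0 (0.53) and 224404_s_at from 159.8 to 107 (-0.57), so the FCRL5 probe sets above the floor in Raji differed in sign. The ratio of 224404_s_at was -1.15 with quantile normalization and -1.14 with a lowess adjustment, which made it a second member at least 2-fold lower. The members' median was -0.08, beside 0.11 for all probe sets, and the median signal of the Raji/R array was the highest of the 4 (log2 of 6.59, against 6.11 to 6.18). Of the probe sets that differed 2-fold in this pair, 72.8% were higher, 50.6% with quantile normalization and 27.8% with a lowess adjustment. The part of this shift in the members' ratios was not tested. The ratios of all probe sets had an SD of 0.60, which FCRL4 224403_at and 224401_s_at, FCRL2 224192_at and FCRL1 243968_x_at exceeded in size.

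**Figure D3:**
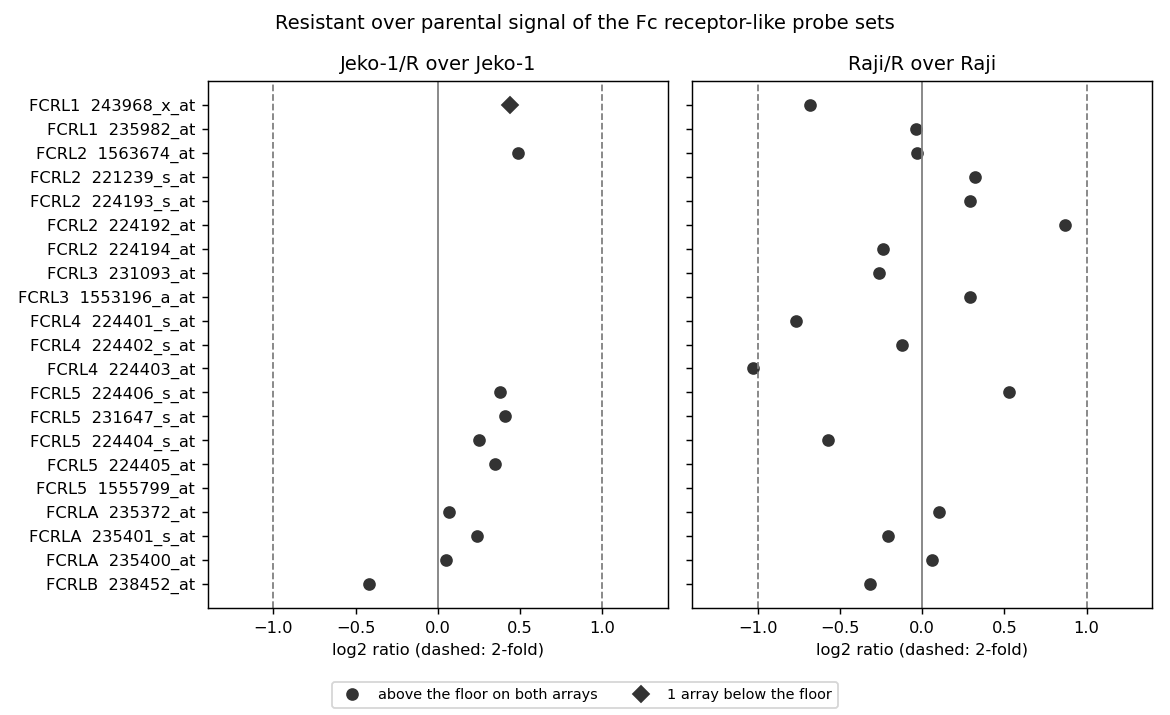
Log2 ratio of resistant over parental signal for each member probe set in the Jeko-1 pair (left) and the Raji pair (right), with 2-fold as dashed lines; a missing point had both arrays below the floor. In the Jeko-1 pair the points lie between -0.42 and 0.49, and in the Raji pair between -1.03 and 0.87.

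Neighbouring genes on chromosome 1 did not share 1 direction. Of the 10 genes with a probe set on each side of FCRL1 to FCRL5, 15 were tested, 3 were called higher in the Jeko-1 lines and 7 in the Raji lines. Over the brightest probe sets of all 15433 genes tested, 22.4% and 29.0% were called (51.4% in all). The genes next to the group were ETV3, a transcription factor gene, with 1514 and 1697 in the Jeko-1 lines, 1554 and 1006 in the Raji lines and no call (limma adjusted p = 0.360), and CD5L, which stayed below the floor on all 4 arrays. Among the neighbours called, PYHIN1, an interferon-inducible gene, was at least 8.64-fold higher in the Jeko-1 lines, and the lipid-presenting molecule CD1D at least 2.70-fold. The mitochondrial ribosomal protein gene MRPL24 was 3.94-fold and the growth factor gene HDGF 2.68-fold higher in the Raji lines. Around FCRLA and FCRLB, 13 of 20 neighbours were tested, 2 were called higher in the Jeko-1 lines, led by UHMK1 (5.29-fold), and 4 in the Raji lines, led by TOMM40L (3.66-fold). The heat shock gene HSPA6 beside them went from 467 to 127 in the Jeko-1 pair and from 160.5 to 1777 in the Raji pair, without a call.

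**Figure D4:**
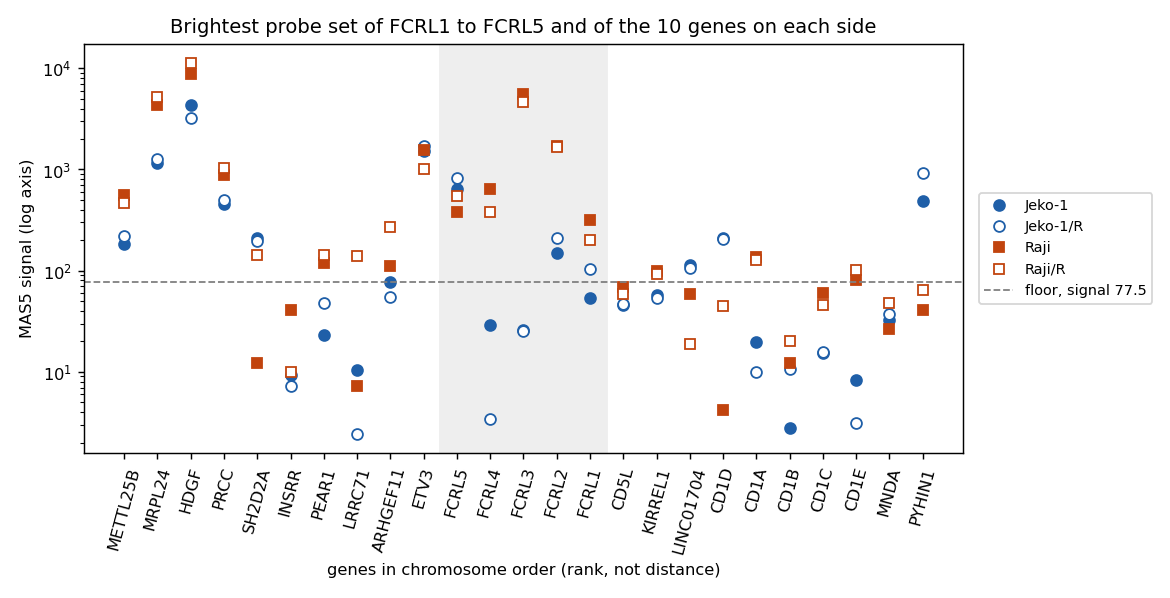
MAS5 signals (log axis) of the brightest probe set of FCRL1 to FCRL5 (shaded) and of the 10 genes with a probe set on each side, in chromosome order; symbols are as in the plot of all member signals. FCRL4, FCRL3 and FCRL2 separate the lines widely, and the brightest FCRL5 probe set, 224406_s_at, is the FCRL5 probe set with the smallest tested difference.

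Classical and other Fc receptors differed between the lines in both directions. Of 16 listed genes, 14 had a probe set and 9 were tested, of which 2 were higher in the Jeko-1 lines and 4 in the Raji lines. The median log2 difference of this list was -0.90, beside -0.28 for all genes tested, of which 22.4% were called higher in the Jeko-1 lines and 29.0% in the Raji lines. FCMR, the receptor for immunoglobulin M, had signals of 3577 and 4295 in the Jeko-1 lines and 367 and 558 in the Raji lines, 8.66-fold higher in the Jeko-1 lines (limma adjusted p = 0.000148). PIGR, the transporter of polymeric antibodies, was at least 19.1-fold higher there with its brighter probe set, but its other probe set gave a log2 difference of -1.42. FCGR2B, the inhibitory receptor for immunoglobulin G on B cells, was 2.10-fold higher in the Raji lines. FCGR2C was 2.31-fold higher. The probe sets of FCGR2B and FCGR2C can bind transcripts of their close copies, so these values are uncertain. FCER2, the low-affinity receptor for immunoglobulin E, was at least 2.21-fold higher in the Raji lines. In the Raji pair FCER1G, the shared signalling chain of several Fc receptors, went from 102 to 205, and PIGR was higher from a value below the floor. The other probe set of PIGR gave a log2 ratio of 0.17 in this pair. Other probe sets of FCGR2C (1.20 and 1.76) and of FCER2 (1.42) also passed 2-fold there, unlike their brightest ones.

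Genes that carry the signals of these receptors were measured on all arrays. Of 20 listed effectors of tyrosine motifs, 19 were tested, with 3 higher in the Jeko-1 lines and 10 in the Raji lines (median -0.78), beside 22.4% and 29.0% of all genes (median -0.28). The Src-family kinase gene FGR had the largest difference, with 197 and 139 in the Jeko-1 lines against 17572 and 18331 in the Raji lines, 109-fold. FYN, another such kinase, was 7.70-fold higher in the Raji lines, although its other probe sets ranged from -2.71 to 0.85, and the lipid phosphatase gene INPPL1 4.91-fold. The adaptor gene GAB1 was 26.6-fold higher in the Jeko-1 lines, with other probe sets between 0.26 and 5.18. Named after their values were seen, the phosphatase genes that inhibitory motifs recruit went in different directions. PTPN6 was 2.39-fold higher in the Raji lines, and PTPN11 was 2.30-fold higher in the Jeko-1 lines, with other probe sets between -0.13 and 1.75. By brightest probe set, 0 of these genes passed in the resistance fit, and 0 differed 2-fold within either pair. Other probe sets did pass 2-fold in the Raji pair, those of FYN ranging from -1.42 to 0.49 and those of GAB1 from -0.41 to 1.21.

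Other inhibitory receptors of B cells were called in 6 of 13 cases, 5 higher in the Raji lines and 1 in the Jeko-1 lines (median -0.32), a share near that of all genes (51.4% called, median -0.28). CD22, a sialic acid-binding receptor, had 621 and 1033 in the Jeko-1 lines against 10954 and 12867 in the Raji lines, 14.8-fold. LAIR1, a collagen receptor, was 14.6-fold (its other probe set gave -0.82), CEACAM1 3.82-fold and SIT1 3.48-fold higher there. PECAM1 was 2.24-fold higher in the Jeko-1 lines, with other probe sets from -0.32 to 0.77, and went from 192 to 426 in the Raji pair. CD200R1 was also at least 2-fold higher in Raji/R, from a value just below the floor (77.3 to 209).

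Genes of the antigen receptor and of memory B cells were read against all genes tested, of which 51.4% were called, 29.0% as higher in the Raji lines and 22.4% in the Jeko-1 lines. All 8 measured genes of the antigen receptor and co-receptor list were called, 6 higher in the Raji lines and 2 in the Jeko-1 lines (median -1.39). The complement receptor gene CR2 had signals of 7.17 and 3.84 in the Jeko-1 lines against 18402 and 20604, at least 251-fold. CD38 was 10.6-fold and CD79A 3.79-fold higher in the Raji lines, and IFITM1 45.3-fold higher in the Jeko-1 lines. Of 12 memory B-cell genes tested, 6 were higher in the Raji lines and 1 in the Jeko-1 lines (median -0.72), a share called near that of all genes. CD27, the classical memory marker, had 376 and 227 against 10032 and 13054, 39.2-fold. The costimulatory gene CD80 was 16.4-fold and the transcription factor gene SOX5 at least 4.04-fold higher in the Raji lines, and ZEB2 6.40-fold higher in the Jeko-1 lines. In the Raji pair ENTPD1 went from 128 to 306 and ITGAX from 234 to 112. Immunoglobulin constant chains, of which 5 of 9 were tested, had 2 called in each direction, with IGHA1 at least 3.91-fold and IGLC1 2.99-fold higher in the Jeko-1 lines, and JCHAIN 5.30-fold and IGHG1 at least 2.41-fold in the Raji lines. Other probe sets of IGLC1 ran from -0.54 to 2.46 and those of IGHG1 from -0.46 to 0.37.

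Marker genes were examined beside these differences. All 6 measured B-cell markers were above the floor on all 4 arrays, PAX5 going from 13252 in Raji to 5628 in its subline, and 0 of 2 mantle cell markers reached it in the Raji lines, against 2 of 2 in the Jeko-1 lines. The 4 germinal centre and Burkitt markers were above the floor on all arrays and went in different directions. BCL6 was 35.2-fold and CD38 10.6-fold higher in the Raji lines. MYC was 3.50-fold higher in the Jeko-1 lines, and MME was not called (limma adjusted p = 0.480). Of 4 plasma cell markers, all reached the floor on every array, with summed signals of 14156 and 17124 in the Jeko-1 lines and 1254 and 1315 in the Raji lines. TNFRSF17 and IRF4 made up most of the Jeko-1 sums. Like FCRL5, TNFRSF17 (12.6-fold) and IRF4 (24.6-fold) were higher in the Jeko-1 lines. PRDM1 was 2.3-fold higher there by its brightest probe set, with other probe sets between -1.55 and 0.05. SDC1, the surface marker of plasma cells, had a log2 difference of -1.0, the Raji lines being higher. Of 6 NK-cell markers, 1 reached the floor in each Jeko-1 line and 3 in each Raji line, with summed signals of 298 and 312 against 1317 and 2058. NKG7 gave 883 and 1749 in the Raji lines, and KLRF1, NCR1 and GNLY were below the floor on all 4 arrays. Of 7 T-cell markers, 1 and 2 reached the floor in the Jeko-1 lines and 2 and 3 in the Raji lines, with summed signals of 2310 and 2464 against 535 and 554. CD247 made up most of the Jeko-1 sums, and CD3E, CD2, CD8A and TRAT1 were below the floor on all 4 arrays. Of 8 myeloid markers, 0 and 1 reached the floor in the Jeko-1 lines and 2 and 4 in the Raji lines, with summed signals of 232 and 228 against 636 and 1125. The part of these markers in the difference of FCRL3 or FCRL5 was not tested.

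For each member, the genes nearest in pattern were sought among 9075 genes whose own signals spanned at least 1 on the log2 scale. The measure was the Euclidean distance between the 4 floored log2 values, each minus its own mean, over the 4 arrays. Nearest to FCRL3 were TOX (distance 0.169), with 31.2 and 8.03 in the Jeko-1 lines and 4839 and 4464 in the Raji lines, IL21R (0.265) and SLAMF1 (0.323). FCRL2 was nearest to SREBF1 (0.140), NR2C2AP and ACADVL. FCRL4 was nearest to COBLL1 (0.067), CLIP2 and BPNT1. FCRL1 was nearest to TSACC (0.085), MAP3K14 and LOC102723692, and FCRLB to RAB11FIP4 (0.021), CBLN3 and CYP3A4. FCRL5 was represented by 224406_s_at and lay nearest to CDK10 (0.035), KATNA1 and ZNF264. FCRLA spanned only 0.45 itself, and the nearest genes, SLC12A8 (0.407), ZNF580 and FLCN, were less alike. With 4 arrays, many genes share such a pattern.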

How the data were processed

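Total RNA of the 4 cultures was extracted with Trizol and labelled with biotin, per the labels' protocols. The authors deposited log2 signals of 54613 probe sets per array; the submitters' processing notes name MAS5 without a version. That the logs are to base 2 is inferred: read so, the trimmed mean signals of the 4 arrays are close to each other (493.4 to 497.0). Detection calls were not used here. The platform annotation gives a single gene to 41091 probe sets, more than 1 to 1801, and leaves 11721 unnamed; 41037 of the first kind matched a gene ID of the RefSeq table (GRCh38.p14), with 0 symbols changed.

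Groups came from the labels. Values below the pooled median were raised to it, and probe sets with at least 1 array at or above it were kept. limma 3.58.1 (R 4.3.3) was fitted with line and resistance as terms, which pairs each subline with its parent by cell line and leaves 1 residual degree of freedom; p-values were moderated, two-sided and adjusted by Benjamini-Hochberg over all probe sets kept. The moderated variance joins this 1 degree of freedom with a prior worth 5.94, taken from all probe sets kept. Where both arrays of a line lay under the floor, that line added no spread of its own. The p-values therefore describe these arrays only and do not measure the spread between separate cultures. Within a pair there was no test, and 2-fold counted as changed. The fit was tested on simulated data, with changes added only to probe sets well above the floor on every array. That test does not cover members with a line under the floor. A gene outside the family was represented by its brightest probe set, also for changes within a line, so its other probe sets may differ. Named were all member probe sets, up to 4 called genes per list by size, genes of a list changed 2-fold within a line, and the 3 nearest genes per member; not all of them are given. The members and lists were chosen with earlier results of these data known. Quantile normalization, other floors and filters, a pseudocount of 50, fits without a term and without each array, a lowess adjustment (fraction 0.3) and a 1.5-fold size were tried. Python 3.11.15, pandas 2.3.3 and statsmodels 0.14.6 were used.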

Additional observations from a re-analysis of the deposited data

Results flagged for a closer look

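Members above the floor on all 4 arrays were examined for resistant-over-parental ratios of opposite sign in the 2 lines. FCRL2 1563674_at was higher in Jeko-1/R (log2 ratio 0.49) and slightly lower in Raji/R (-0.03), a gap of 0.53; its Raji ratio was 0.03 with quantile normalization. FCRL5 224404_s_at stood at 0.25 and -0.57, a gap of 0.82; its Raji ratio was -1.15 with quantile normalization and -1.14 with a lowess adjustment, past 2-fold. FCRLA 235401_s_at stood at 0.24 and -0.21, a gap of 0.45. With 1 array per group a fit with an interaction has 0 residual degrees of freedom, so these differences were not tested.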

How the results depend on the processing

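In the fit, the direction of the line difference was kept by the members in each alternative in which they were tested, except FCRLA 235372_at with quantile normalization. In the single-array contrasts, a lowess adjustment turned FCRLA 235372_at to 0.22 for parental and 0.33 for resistant cells and FCRLA 235401_s_at to 0.09 for resistant cells, and quantile normalization turned 235372_at to 0.10 for resistant cells. The number of members called higher in the Raji lines, 13, fell to 6 once the floor stood at percentile 75, 8 without x_at and s_at probe sets, 8 with a filter on the mean and 0 with no floor or with no filter. The number called higher in the Jeko-1 lines, 3, was 1 without x_at and s_at probe sets and 0 with no floor or with no filter. The higher floor, the filter on the mean and the removal of x_at and s_at probe sets left 14, 14 and 11 members to test; for the other 2 settings the cause was not tested. Leaving out 1 array gave 2 to 11 and 0 to 2 members. Other settings moved the median line difference of all probe sets from -0.14 to between -0.30 and 0.01. Without the replicate block, that is without the cell line term, 0 members were called between resistant and parental cells, as with the block, and 0 had an unadjusted p under 0.05. In the Raji pair the single member at least 2-fold lower became 2 with quantile normalization or the lowess adjustment, 0 with the higher floor or a pseudocount, and 3 at 1.5-fold, where 1 was higher. Added after seeing the data, the single-array contrasts of the lines gave 1 member 2-fold higher with the higher floor or without x_at and s_at probe sets, and 4 and 7 lower, for parental and for resistant cells. By brightest probe set, 5 of 7 genes were called higher in the Raji lines and 0 in the Jeko-1 lines; averaging a gene's probe sets gave 5 and 1, the latter being FCRL5. Signals near the floor limit what can be said of FCRL1, and of FCRL2 to FCRL4 in the Jeko-1 lines.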
